A study of Danio rerio with 9 samples.

Results

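Genes of plasma lipoproteins and their assembly were followed in zebrafish liver. They were chosen by name: a list of 10 symbols was matched, ignoring case, to the zebrafish gene symbols of the 33716 gene IDs in the deposited expression table. Of those symbols, 9 had a row and all 9 passed the filter on low values: apoa1a, apoa1b, apoa2, apoa4b.3, apobb.1, apoc1, apoeb, mttp and lcat. The symbol apoba matched no row. The gene ID with the unsplit symbol apob (ENSDARG00000042780) is described beside them under that symbol and is not counted among the 9.

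Lipoproteins are particles that carry fat and cholesterol through blood. Apolipoprotein B is the large protein that very low density particles are built on, and the microsomal triglyceride transfer protein encoded by mttp loads lipid onto it inside the endoplasmic reticulum (ER). Apolipoproteins A-I and A-II are the main proteins of high density lipoprotein (HDL), and the enzyme encoded by lcat esterifies the cholesterol of HDL. Apolipoprotein E is a ligand of receptors of the low density lipoprotein receptor family, and the small C apolipoproteins adjust lipase activity and uptake of the particles. The liver is the main source of these plasma proteins, and the intestine of mammals also makes apolipoproteins A-I, A-IV and B.

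RNA from livers was sequenced in 9 libraries, 3 per group, with 46.1 to 54.5 M reads assigned to genes in each. The wild-type fish (titled AB, a laboratory line) and the fish labelled maternal zygotic null for pdia6 were 3.5 months old. The third group was labelled maternal zygotic null for focad, with no age in the labels used here. Such fish have neither the mother's supply of the gene product nor a working copy of their own. The pdia6 gene encodes a protein disulfide isomerase of the ER, and focad encodes focadhesin. The labels name a line for wild type only, so line and genotype cannot be told apart. Whether each library is a separate fish is not said either, and p-values therefore reflect just the scatter of these libraries, part of which may be technical.

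Some libraries stood apart. The library labelled focad null replicate 2 held 0.528 of focad, inside the wild-type range of 0.521 to 1.14, and the library labelled pdia6 null replicate 1 held 44.3 of pdia6, inside the wild-type range of 14.2 to 265 (all in rescaled FPKM, a level per gene length and sequencing depth after rescaling between libraries). Hepatocyte transcripts were abundant everywhere, with fabp10a between 11024 and 33693 FPKM and tfa between 7464 and 13790. Their sum over 26 marker genes was 97347 to 106112 FPKM in the libraries labelled focad null, below the other groups (118256 to 163908). The sum of 16 gene IDs of intestine markers was highest in focad null replicates 1 and 2. It was 568, 5354 and 136 FPKM in replicates 1 to 3 of focad null, against 118 to 136 in wild type and 54.1 to 76.5 in pdia6 null. The sum of focad null replicate 3 (135.8) was thus level with that of wild-type replicate 3 (135.6), but its make-up differed. Most of the wild-type sums came from tm4sf4 (64.5 to 86.8 FPKM) and tm4sf5 (31.8 to 45.1). In focad null replicate 3 these genes were lower, at 26.66 and 23.61 FPKM. The largest part there came from fabp2, at 71.1 FPKM against at most 6.05 in wild type. The other markers went both ways between these libraries labelled replicate 3. Level sums therefore do not show that this focad null library held no more intestine transcripts than wild type. Exocrine pancreas transcripts summed to 989 to 4926 FPKM in focad null and 379 to 1314 in the other groups. The ER chaperone gene hspa5 stood at 734 FPKM in wild-type replicate 1 and 2359 in the library labelled pdia6 null replicate 1, against at most 199 in the other libraries. The sum of 20 gene IDs of macrophage markers was 1526 FPKM in the library labelled focad null replicate 2 and 252 to 527 in the others. Most of the sum of 1526 came from cd74a (1034.6 FPKM) and cd74b (343.6). The other markers did not all go the same way in that library. Csf1ra was at its lowest of the 9 libraries there (0.1727 FPKM), and marco (7.75) and lcp1 (11.66) were at their highest. Of 8 gene IDs with the symbol mfap4, between which reads may be split, ENSDARG00000088745 and ENSDARG00000090783 were called higher in focad null than in wild type (limma adjusted p = 0.00228 and 0.0456). ENSDARG00000089667 was called higher in pdia6 null (adjusted p = 0.0421), and all these were at levels of at most 11.97 FPKM. The most abundant mfap4 gene, ENSDARG00000090557, went the other way, at 55.0, 44.9 and 101 FPKM in focad null against 378, 170 and 101 in wild type. Its groups overlapped, and the difference did not pass (log2 difference -1.55, limma adjusted p = 0.213). The hepatocyte gene hp was called lower in focad null than in wild type (log2 difference -6.52, limma adjusted p = 0.0480). The vitellogenins vtg1 and vtg2, abundant in livers of adult females, stayed at or below 1.15 FPKM in every library. Vtg5 stood at 7.83, 3.57 and 3.42 FPKM in focad null, all above the wild-type libraries (0.237 to 2.97; limma adjusted p = 0.300), and the sum of 10 female liver markers was 4.26 to 10.3 FPKM in focad null, 1.41 to 3.95 in wild type and 3.099 to 6.26 in pdia6 null. In bulk RNA, fewer cells of a type and less RNA per cell cannot be told apart.

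The genes covered a range of levels that was far wider than any difference between groups. Per length, apoa2 ranked first or second among all genes in every library, apoa1b between 1 and 4, and apoc1 between 3 and 6. Apoa1a ranked 10 to 25, apoeb 51 to 157, apobb.1 132 to 242 and mttp 666 to 1008. Lcat ranked 1395 to 6062, and apoa4b.3 ranged from 677 to 10386. In the order of wild-type means, the ranges over all 9 libraries were apart from apoc1 downwards to lcat, and each gene was above the next in 9 of 9 libraries. At the top, apoa2 exceeded apoa1b in 8 of 9 libraries and apoa1b exceeded apoc1 in 7 of 9, with overlapping ranges. At the bottom, lcat exceeded apoa4b.3 in 5 of 9.

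**Figure D1:**
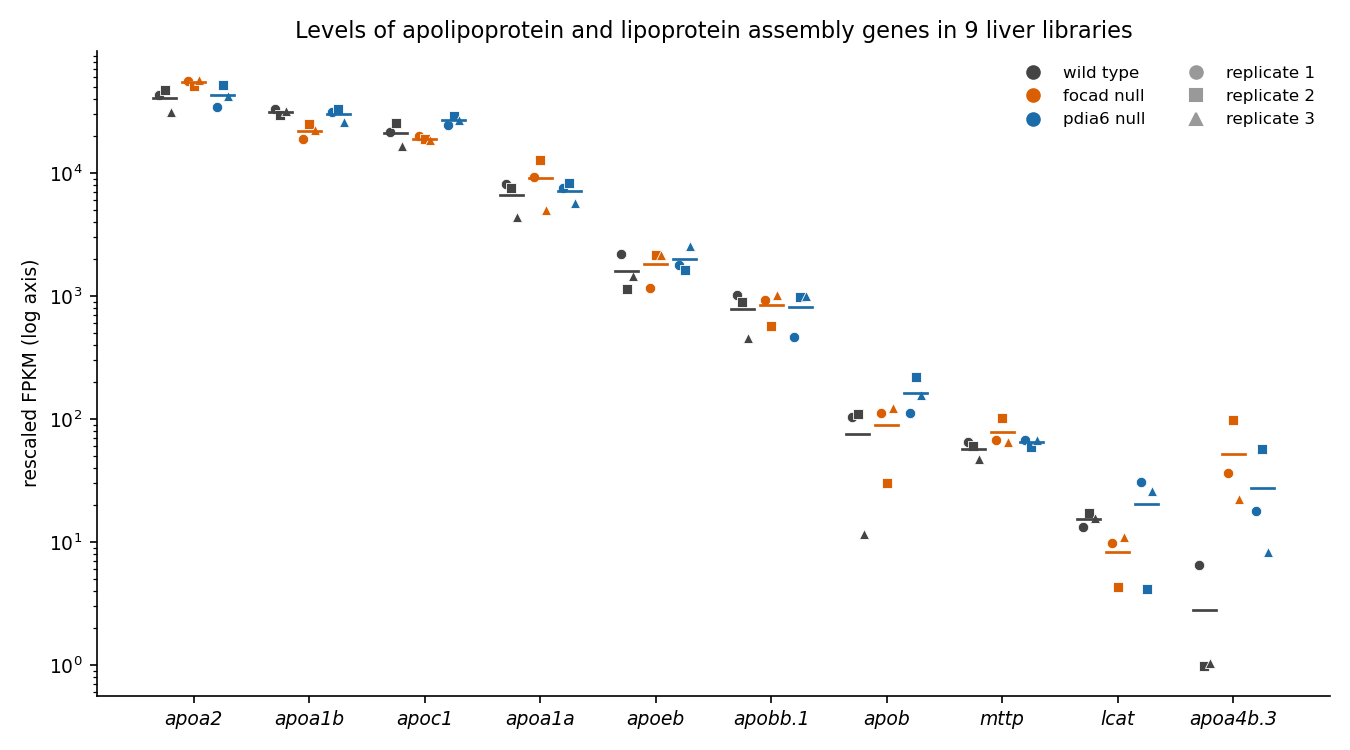
Rescaled FPKM (log axis) of the 9 genes and apob in each of the 9 liver libraries, ordered by wild-type mean. Colour gives the group, the symbol gives the replicate number, and the bar is the group mean (n = 3). Apoa2, apoa1b and apoc1 lie between 16507 and 57168 FPKM in all libraries, and apoa4b.3 spreads from 0.973 to 98.0.

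Together the 9 genes took between 10.7% and 15.4% of all reads assigned to genes in a library. The share was 13.9%, 11.6% and 10.7% in wild-type replicates 1 to 3, 12.3%, 11.1% and 13.2% in focad null, and 12.9%, 15.4% and 12.4% in pdia6 null. The 3 groups overlapped. The means were 12.1% ± 1.63 (SD, n = 3), 12.2% ± 1.05 and 13.6% ± 1.60, and the exact two-sided permutation p was 1.0 for focad null and 0.4 for pdia6 null against wild type (0.1 is the smallest p that such groups of 3 can give). Most of the share came from apoa1b (4.11% to 6.99% of reads), apoa2 (2.12% to 4.40%) and apoc1 (1.24% to 2.37%).

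The comparison of focad null with wild type asked which of these transcripts differ without focad. None of the 9 genes passed the test across all genes (limma on log2(FPKM + 1), Benjamini-Hochberg adjusted p under 0.05), where 1.56% of the 13290 genes tested were called (0.625% higher and 0.933% lower). Limma voom on recovered reads and the authors' deposited table also called 0, and 1 gene, apoa4b.3, had an unadjusted p under 0.05, as had 14.7% of all genes. For 5 of the 9 genes the libraries of the groups did not overlap, against 20.0% of all genes. Apoa2, apoa4b.3 and mttp lay higher (10.4% of all genes), and apoa1b and lcat lower (9.64%). The median log2 difference of the 9 was 0.19, against 0.01 over all genes tested. Their median size of difference, regardless of sign, was 0.42, against 0.27 over all genes tested. It was 0.40 for the 1016 genes whose mean reached 50 FPKM, which lcat and apoa4b.3 (14.6 and 27.6 FPKM) did not reach. In pdia6 null against wild type the 9 genes had 0.14, against 0.25 over all genes and 0.39 for those 1016. Between the nulls they had 0.37, against 0.305 and 0.43.

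The comparison of pdia6 null with wild type asked the same for pdia6. Again 0 of the 9 genes passed limma, where 1.23% of all genes were called (0.519% higher and 0.707% lower), and voom and the authors' deposited table called 0 as well. Apoa4b.3 was the 1 gene with an unadjusted p under 0.05, as had 12.5% of all genes. It was also the 1 gene whose libraries did not overlap, and it lay higher, against 20.6% of all genes in either direction (9.65% higher and 11.0% lower). The median log2 difference of the 9 was 0.14, against -0.01 over all genes. Both comparisons use the same wild-type libraries. Between focad null and pdia6 null, 0 of 9 genes passed limma (1.2% of all genes, with 0.609% higher and 0.594% lower), 0 did with voom, 0 had an unadjusted p under 0.05 (17.9% of all genes), and 2 did not overlap, apoa1b and apoc1, both lower in focad null. Of all genes, 24.4% were apart there (13.2% higher and 11.2% lower).

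**Figure D2:**
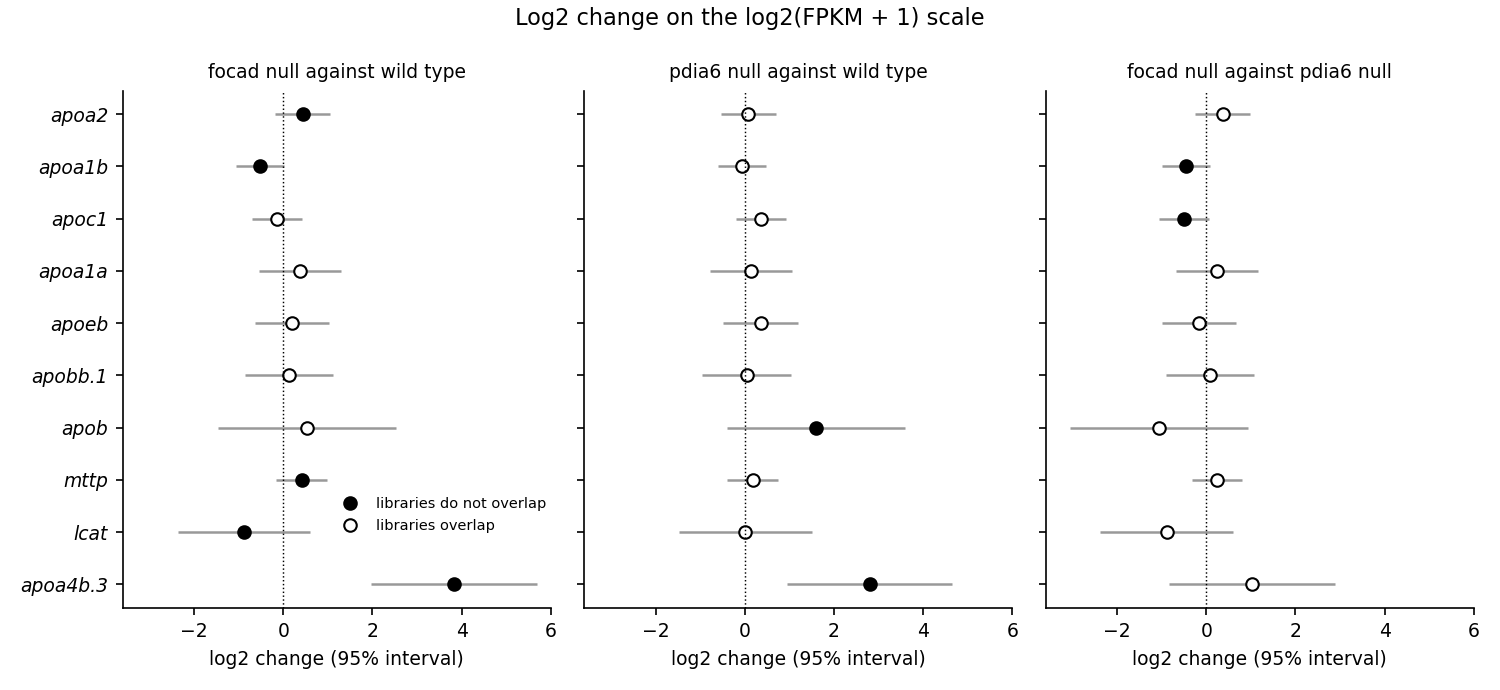
Log2 difference on the log2(FPKM + 1) scale for each gene in the 3 comparisons, with the 95% interval of the limma fit over 9 libraries. Filled points mark genes whose libraries do not overlap between the groups. The largest values are those of apoa4b.3, 3.83 and 2.80 against wild type, and the intervals of all other genes include 0.

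Among the HDL proteins, apolipoprotein A-I comes from a pair of genes, apoa1a and apoa1b. Apoa1b (ENSDARG00000101324) stood at 33219, 29450 and 32218 FPKM in the wild-type libraries (replicates 1 to 3, as in all lists of values here), at 19017, 24921 and 22568 in focad null, and at 31401, 33353 and 26302 in pdia6 null. All 3 libraries labelled focad null were below all 6 others. The log2 difference of focad null was -0.52 ± 0.23 (SE) against wild type (limma adjusted p = 0.351) and -0.46 ± 0.23 against pdia6 null (adjusted p = 0.347), and neither passed. Pdia6 null against wild type gave -0.06 ± 0.23, with a 95% interval from -0.60 to 0.47.

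Apoa1a (ENSDARG00000012076) stood at 8109, 7520 and 4423 FPKM in wild type, at 9278, 12859 and 5003 in focad null, and at 7543, 8377 and 5752 in pdia6 null. Replicate 3 was the lowest of each group, and the groups overlapped. Against wild type, the log2 difference was 0.38 ± 0.40 (SE) in focad null and 0.14 ± 0.40 in pdia6 null (limma adjusted p = 0.722 and 0.950). The first was 0.08 without the library labelled focad null replicate 2 and 0.11 without wild-type replicate 3. It was 0.76 without focad null replicate 3.

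Within a library, apoa1b exceeded apoa1a by 4.096, 3.92 and 7.29 times in wild type, by 2.05, 1.94 and 4.51 times in focad null, and by 4.16, 3.98 and 4.57 times in pdia6 null. Replicates 1 and 2 of the libraries labelled focad null had the lowest ratios of the 9, and replicate 3 lay among the others. On the log2 scale the ratio averaged 2.29 ± 0.50 (SD, n = 3), 1.39 ± 0.68 and 2.08 ± 0.10. The exact permutation p of focad null was 0.3 against either other group (0.6 adjusted over the 9 single-value tests made).

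Apoa2 (ENSDARG00000015866), which encodes apolipoprotein A-II, stood at 43403, 47726 and 31705 FPKM in wild type, at 56406, 51013 and 57168 in focad null, and at 34268, 52438 and 42727 in pdia6 null. The focad null libraries were above all wild-type libraries and overlapped with pdia6 null at its replicate 2. Against wild type, the log2 difference was 0.44 ± 0.27 (SE; limma adjusted p = 0.501) in focad null and 0.08 ± 0.27 in pdia6 null (adjusted p = 0.964). The interval for pdia6 null ran from -0.54 to 0.69. Wild-type replicate 3 was the lowest library, and the difference of focad null was 0.27 without it. Over all 20 fits that difference ran from 0.27 to 0.56.

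Apoc1 (ENSDARG00000092170), a small apolipoprotein that slows particle uptake in mammals, stood at 21730, 25591 and 16507 FPKM in wild type, at 19920, 18875 and 18437 in focad null, and at 24752, 29418 and 27258 in pdia6 null. The focad null libraries lay close together, inside the wild-type range, and below all pdia6 null libraries. The log2 difference between focad null and pdia6 null was -0.51 ± 0.25 (SE; limma adjusted p = 0.324). Against wild type it was -0.14 ± 0.25 in focad null and 0.37 ± 0.25 in pdia6 null (adjusted p = 0.867 and 0.615).

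The log2 ratio of apoa2 to apoc1 had an SD (n = 3) of 0.05 in wild type, 0.10 in focad null and 0.18 in pdia6 null. The ratio of apoa2 to apoc1 in a library was 2.00, 1.86 and 1.92 in wild type, 2.83, 2.70 and 3.101 in focad null, and 1.38, 1.78 and 1.57 in pdia6 null. All 3 groups were apart, with focad null highest and pdia6 null lowest. The gap between pdia6 null and wild type was small (1.78 at the highest against 1.86 at the lowest). Of the 36 ratios that 9 genes allow, this was the only one with all 3 groups apart, so it was singled out after its values were seen and is given with no test. Groups were apart for 16 of the 36 ratios in focad null against wild type, for 8 in pdia6 null against wild type and for 4 between the nulls. All ratios with apoa4b.3 were among those apart in focad null against wild type. All of them except that to lcat were also among those apart in pdia6 null against wild type. The 36 ratios share 9 genes, so they are not separate results. The share among ratios of other genes was not computed, so how unusual these counts are is not known. The summed level of 7 adipocyte marker genes was apart in the same order, at 105 to 140 FPKM in focad null, 75.0 to 79.7 in wild type and 31.1 to 49.2 in pdia6 null. Most of the sum came from cfd, pparg, cidec and fabp4a. Of the other adipocyte markers, plin1 stayed at or below 1.256 FPKM, and adipoqa and adipoqb matched no row. None of the 7 genes was itself apart in all 3 groups. For cfd, focad null overlapped with wild type, and for fabp4a and cidec, pdia6 null did. The sum was picked after its values were seen, and its part in the ratio was not tested.

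Apoa2 and apoc1 belong to a run of apolipoprotein genes. In the RefSeq annotation of the assembly GRCz12tu, the order is apoa4b.1, apoa4b.3, apoa4b.2, apoeb, apoc1, apoc4, apoa2 and apoc2, with at most 1 other protein-coding gene between neighbours. That assembly is another build than the authors', so only gene order was taken from it. Among the 9 genes, the nearest to apoa2, by root-mean-square difference of centred log2 values over 9 libraries, was mttp (0.29), and the nearest to apoc1 was apoa1b (0.30).

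Apoc2, whose protein activates lipoprotein lipase, stood at 470, 581 and 253 FPKM in wild type, at 868, 524 and 767 in focad null, and at 655, 850 and 681 in pdia6 null. The pdia6 null libraries were all above wild type, and the focad null libraries overlapped with it. The log2 differences of 0.78 and 0.82 did not pass limma (adjusted p = 0.356 and 0.396). Apoc4 stood between 19.2 and 56.5 FPKM in the 9 libraries, and the 3 pdia6 null libraries were the highest. Its differences did not pass limma either (adjusted p = 0.941 and 0.573 against wild type).

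**Figure D3:**
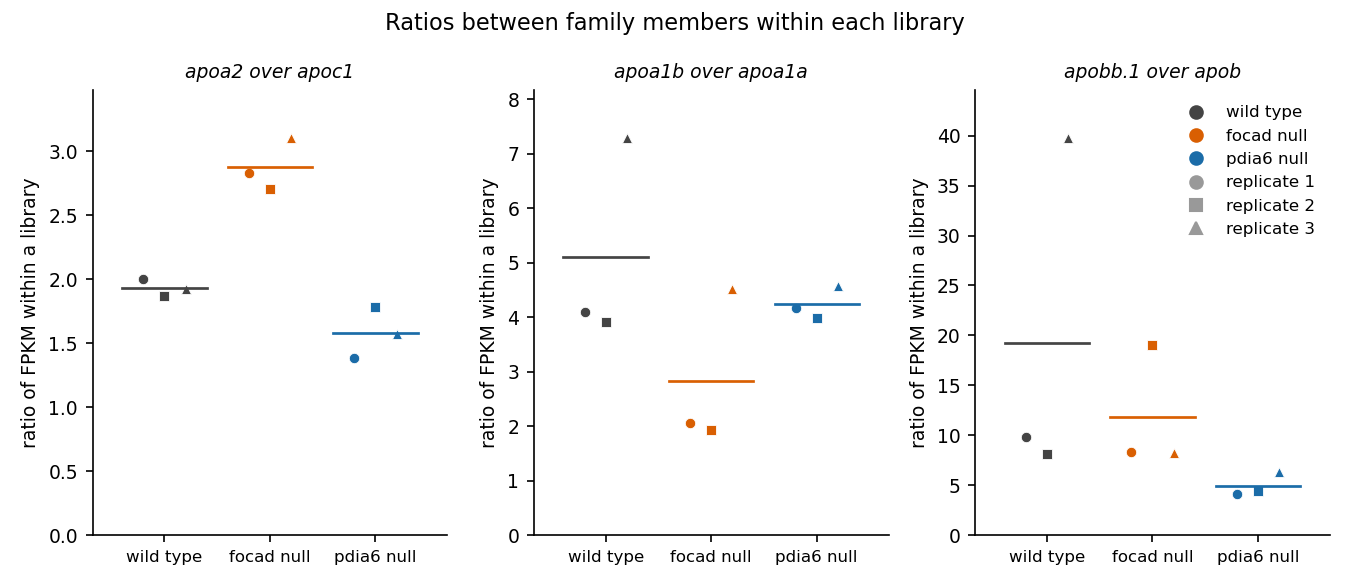
Ratio of FPKM between pairs of genes within each library, on linear axes from 0, for apoa2 over apoc1, apoa1b over apoa1a and apobb.1 over apob. Points are libraries and bars are group means (n = 3). The first ratio lies at 2.70 to 3.101 in focad null, 1.86 to 2.00 in wild type and 1.38 to 1.78 in pdia6 null.

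Of the zebrafish genes related to apolipoprotein A-IV, apoa4b.3 (ENSDARG00000094929) gave the largest difference among the 9. It stood at 6.45, 0.973 and 1.04 FPKM in wild type, at 36.3, 98.0 and 22.5 in focad null, and at 17.9, 57.0 and 8.26 in pdia6 null. Every library labelled null was above every wild-type library, and the lowest count was 34 reads. The means were 2.82 ± 3.14 (SD, n = 3), 52.2 ± 40.2 and 27.7 ± 25.8 FPKM. Against wild type, the log2 difference was 3.83 ± 0.81 (SE) in focad null (limma adjusted p = 0.0666) and 2.80 ± 0.81 in pdia6 null (adjusted p = 0.187). Neither passed. Without focad null replicate 3, the difference of focad null was 4.29 and passed (adjusted p = 0.0403). Over the 19 other fits the adjusted p ran from 0.0503 to 0.218.

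Its neighbour in the genome apoa4b.2 stood at 61.4, 173 and 4.42 FPKM in wild type, at 410, 1845 and 162 in focad null, and at 15.7, 234 and 85.9 in pdia6 null. Apoa4b.1 stood at 600.5, 933 and 94.2 FPKM in wild type, at 1250, 780 and 1094 in focad null, and at 325, 2155 and 764 in pdia6 null. Wild-type replicate 3 was the lowest library for both, and the groups overlapped. The log2 difference of focad null from wild type was 3.68 for apoa4b.2 and 1.44 for apoa4b.1 (limma adjusted p = 0.300 and 0.515).

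Another pair of neighbours, apoa4a and apoea, was close to absent outside the focad null group. Apoea, a second zebrafish gene for apolipoprotein E, stood at 298, 5549 and 15.9 FPKM in replicates 1 to 3 of the group labelled focad null. Wild type had 0.601, 0.348 and 4.69 FPKM, and pdia6 null had 0.0421, 1.16 and 0.179. Apoa4a stood at 10.8, 67.3 and 0.464 FPKM in focad null and at or below 0.533 in the other 6 libraries. The focad null libraries did not overlap with the others for apoea. The log2 difference of apoea was 7.04 ± 1.73 (SE) against wild type (limma adjusted p = 0.106) and 7.78 ± 1.73 against pdia6 null (adjusted p = 0.0820).

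Over the focad null libraries, the intestine markers fabp2 and vil1 had the order of apoea, apoa4a and apoa4b.2, with replicate 2 highest and replicate 3 lowest. The intestinal fatty acid binding protein gene fabp2 stood at 237, 3640 and 71.1 FPKM in focad null against at most 6.05 elsewhere, and the brush border gene vil1 at 23.4, 192 and 1.74 against at most 0.943. The library labelled focad null replicate 2 was the highest for all of them and for apoa4b.3, apoa1a and mttp. These last genes also had the full order over the focad null libraries, and the rest of the 9 genes did not. Of 14 intestine markers tested, which include apoa4a, 0 passed limma against wild type in either group, and 1, fabp2, was called higher in focad null than in pdia6 null (log2 difference 7.24, adjusted p = 0.0355). At an unadjusted p under 0.05 were 10 in focad null against wild type (14.7% of all genes), 0 in pdia6 null against wild type (12.5%) and 11 between the nulls (17.9%). The median log2 differences of the 14 were 2.22, -0.42 and 2.81 in that order. Apoa4b.3 was above wild type in pdia6 null as well. In that group, replicate 2 was the highest for apoa4b.3 and apoa4b.2. It was also the highest for fabp2 (0.218, 3.45 and 2.34 FPKM) and vil1 (0.0130, 0.182 and 0.00693). The lowest of these values rest on few reads, 9 for fabp2 and 1 for vil1. Wild type had 2.60 to 6.05 FPKM of fabp2 and 0.141 to 0.943 of vil1. The part of the intestine markers in the results for apolipoproteins was not tested. Without the library labelled focad null replicate 2, apoa4b.3 differed from wild type by 3.25 (limma adjusted p = 0.136). The count of genes with groups apart was 5 of the 9 in that case, where 33.1% of all genes were apart. Leaving out a library cannot make separate groups overlap, so this count could not fall.

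**Figure D4:**
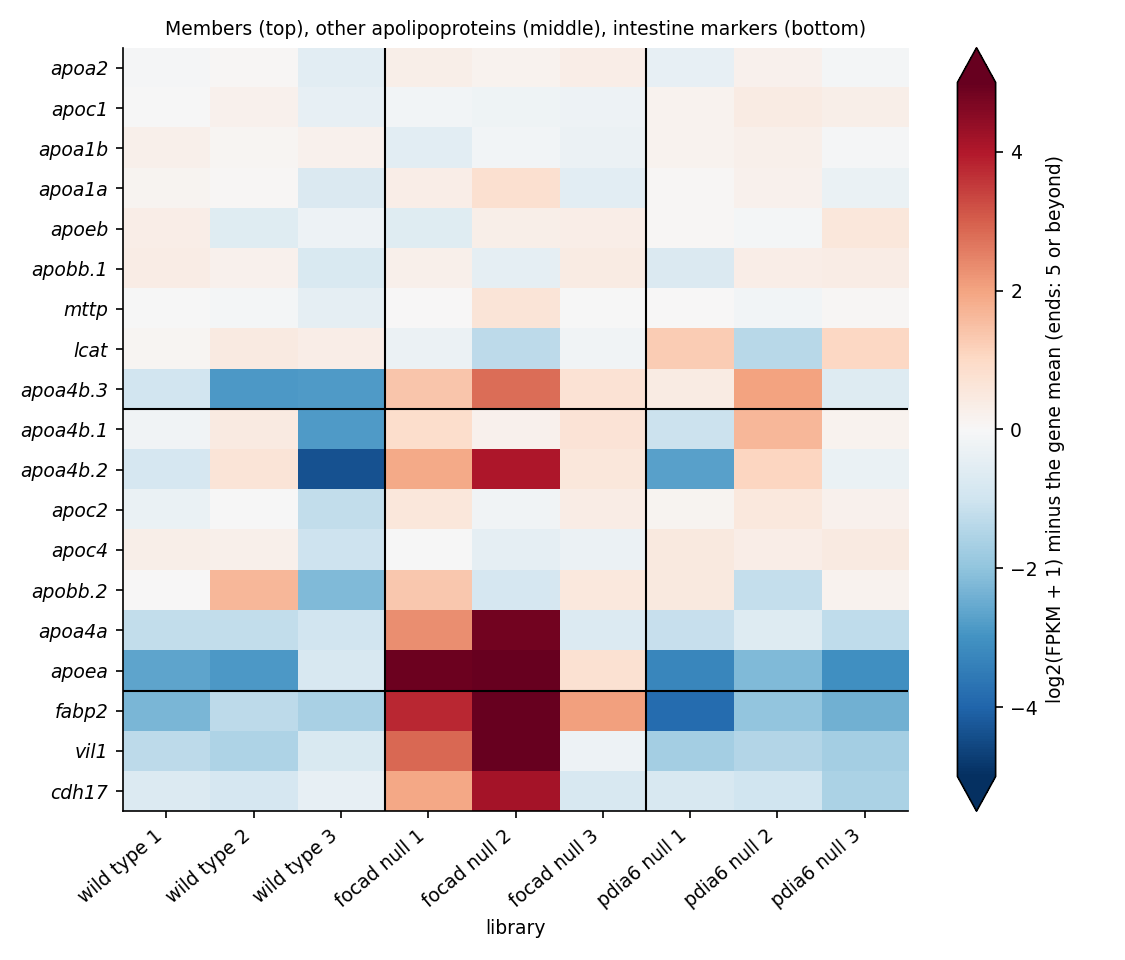
Log2(FPKM + 1) minus the mean of each gene, by library (columns), for the 9 genes (top block), other apolipoprotein genes (middle) and 3 intestine markers (bottom). Colours end at 5 log2 units on either side. Apoea, apoa4a and the intestine markers are high in focad null replicates 1 and 2, apoa2, apoc1 and apoa1b vary little, and wild-type replicate 3 is low for the apoa4b genes and apobb.2.

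Apoeb (ENSDARG00000040295) was the main apolipoprotein E transcript in 8 of 9 libraries. It stood at 2180, 1135 and 1464 FPKM in wild type, at 1157, 2161 and 2167 in focad null, and at 1803, 1644 and 2549 in pdia6 null. The groups overlapped throughout. Against wild type, the log2 difference was 0.19 ± 0.36 (SE) in focad null and 0.35 ± 0.36 in pdia6 null (limma adjusted p = 0.872 and 0.778). In the library labelled focad null replicate 2, apoea at 5549 FPKM exceeded apoeb at 2161.

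Of the genes for apolipoprotein B, apobb.1 (ENSDARG00000022767) was the most abundant in every library. It stood at 1013, 890.0 and 457.5 FPKM in wild type, at 936.0, 571 and 1018 in focad null, and at 464, 974.8 and 1002 in pdia6 null. Each group held 1 library between 457.5 and 571 FPKM (wild-type replicate 3 and the libraries labelled focad null replicate 2 and pdia6 null replicate 1), and the others lay between 890.0 and 1018. Against wild type, the log2 difference was 0.13 ± 0.44 (SE) in focad null and 0.04 ± 0.44 in pdia6 null, with 95% intervals from -0.86 to 1.13 and from -0.95 to 1.04 (limma adjusted p = 0.935 and 0.993).

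The gene with the symbol apob stood at 103, 110.0 and 11.5 FPKM in wild type, at 113, 29.9 and 124 in focad null, and at 113, 220.0 and 157.5 in pdia6 null. All pdia6 null libraries were above wild type, by a small gap at replicate 1, and wild-type replicate 3 was the lowest library. The log2 difference of pdia6 null from wild type was 1.59 ± 0.88 (SE; limma adjusted p = 0.523), and it was 0.56 without wild-type replicate 3. Over all 20 fits it ran from 0.56 to 2.33. Apobb.1 exceeded apob by 9.80, 8.09 and 39.8 times in wild type, by 8.29, 19.1 and 8.23 times in focad null, and by 4.12, 4.43 and 6.36 times in pdia6 null. The pdia6 null ratios were below all others. The exact permutation p was 0.1, the smallest that 3 against 3 can give, against either other group (0.45 adjusted over the 9 single-value tests). Apobb.2 stood between 9.40 and 149.5 FPKM, with overlapping groups.

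The transfer protein gene mttp (ENSDARG00000008637) stood at 64.4, 60.6 and 47.7 FPKM in wild type, at 67.4, 102 and 65.0 in focad null, and at 66.9, 59.6 and 67.7 in pdia6 null. The focad null libraries were above wild type, with replicate 3 by less than 1 FPKM. The log2 difference was 0.42 ± 0.25 (SE) in focad null and 0.18 ± 0.25 in pdia6 null (limma adjusted p = 0.489 and 0.858). The first was 0.21 without the library labelled focad null replicate 2 and 0.29 without wild-type replicate 3. Over all 20 fits it ran from 0.21 to 0.53. Focad null replicate 2 held the most intestine transcripts, and their part in the mttp difference was not tested. P4hb, the protein disulfide isomerase that is the partner subunit of the transfer protein, stood at 220.0, 143 and 96.1 FPKM in wild type, at 168, 111 and 48.3 in focad null, and at 316, 233 and 219 in pdia6 null. The pdia6 null libraries of p4hb were above all focad null libraries. The log2 difference between those groups was 1.38 in size, lower in focad null (adjusted p = 0.200).

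The HDL enzyme gene lcat (ENSDARG00000099424) stood at 13.1, 17.1 and 15.54 FPKM in wild type, at 9.82, 4.31 and 10.9 in focad null, and at 30.7, 4.11 and 25.9 in pdia6 null. The wild-type libraries lay close together, the focad null libraries were all below them, and the pdia6 null libraries lay on both sides. Against wild type, the log2 difference was -0.88 ± 0.65 (SE; limma adjusted p = 0.588) in focad null and 0.01 ± 0.65 in pdia6 null (adjusted p = 1.00). The second changed sign without either of the high pdia6 null libraries (-0.46 without replicate 1 and -0.35 without replicate 3). Over all 20 fits it ran from -0.56 to 0.85.

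Other genes of the pathway were taken from lists of zebrafish symbols. Of 9 further apolipoprotein genes tested, 0 passed limma in any comparison, and 3, 1 and 3 had an unadjusted p under 0.05 in focad null against wild type, pdia6 null against wild type and focad null against pdia6 null. Of all genes tested, 14.7%, 12.5% and 17.9% had such a p. The median log2 difference of the 9 further genes was 0.78 in focad null and 0.12 in pdia6 null against wild type. Apom, whose protein rides on HDL, stood at 5141, 3276 and 2994 FPKM in wild type, at 2220, 2108 and 2004 in focad null, and at 3592, 1377 and 2279 in pdia6 null. It was picked after its values were seen. The focad null libraries lay below wild type with no overlap (log2 difference -0.81, limma adjusted p = 0.366).

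Of 31 gene IDs for assembly and secretion of apolipoprotein B particles, 0 passed limma. At an unadjusted p under 0.05 were 3, 3 and 6 in the same order, against 14.7%, 12.5% and 17.9% of all genes. The medians of the 31 were -0.35 in focad null and 0.01 in pdia6 null. The lowest p-values were those of vmp1, an ER membrane protein, and of a surf4 gene, which encodes a cargo receptor. Vmp1 stood at 21.8, 17.3 and 22.0 FPKM in focad null against 63.7, 49.5 and 38.4 in pdia6 null (limma adjusted p = 0.0649), with 45.9, 32.9 and 32.9 in wild type. The surf4 gene (ENSDARG00000104647, 1 of 2 IDs with that symbol) stood at 13.0, 10.9 and 11.5 FPKM in focad null against 18.3, 28.3 and 23.5 in wild type (adjusted p = 0.0929). Tm6sf2a, picked after its values were seen and related to a human gene that affects liver lipid export, stood at 8.49, 6.11 and 7.001 FPKM in the wild-type libraries, and all null libraries were higher, at 9.56 to 25.3 (adjusted p = 0.305 and 0.233).

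Of 20 gene IDs for lipases, lipid transfer and remodelling, 0 passed limma. Unadjusted, 5, 6 and 6 did, against 14.7%, 12.5% and 17.9% of all genes. The medians of the 20 were -0.20 and -0.31 against wild type. Pon1, a paraoxonase carried on HDL in mammals, stood at 20.6, 24.5 and 23.4 FPKM in focad null against 8.10, 12.6 and 7.63 in pdia6 null (limma adjusted p = 0.0632). Wild type had 11.5, 15.7 and 18.0. Transthyretin (ttr) stood at 81.7, 148.5 and 122.9 FPKM in focad null against 326, 307 and 291 in wild type (adjusted p = 0.0752). The abundant lpl gene ID, 1 of 2 with that symbol, for lipoprotein lipase, stood between 127 and 880 FPKM with no comparison passing, and abca1b, a lipid exporter, between 0.210 and 6.05.

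Of 15 gene IDs for receptors and uptake, 0 passed limma. Unadjusted, 1, 0 and 1 did, against 14.7%, 12.5% and 17.9% of all genes. The medians of the 15 were -0.001 and -0.20 against wild type. Ldlra, the low density lipoprotein receptor gene, ranged from 8.13 to 161 FPKM with overlap between the groups. The lowest p-values belonged to cd36, a fatty acid scavenger receptor, and npc2, a cholesterol carrier of the lysosome. Cd36 stood at 30.6, 391.5 and 2.135 FPKM in focad null and at most 0.703 elsewhere (adjusted p = 0.137 against pdia6 null). The order of these libraries was that of fabp2 and vil1. Npc2 (ENSDARG00000090912, 1 of 2 IDs with that symbol) stood at 160, 105 and 163 FPKM in pdia6 null against 162, 245 and 241 in wild type (adjusted p = 0.423). Scarb1, an HDL receptor, was at 19.5 FPKM in the library labelled focad null replicate 2 and at most 1.72 in the others.

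Of 29 gene IDs for transcription factors, 0 passed limma. Unadjusted, 2, 5 and 5 did, against 14.7%, 12.5% and 17.9% of all genes. The medians of the 29 were 0.04 and 0.13 against wild type. Nr2f2, an orphan nuclear receptor, stood at 27.0, 51.9 and 20.8 FPKM in pdia6 null against 8.39, 5.10 and 11.7 in focad null (limma adjusted p = 0.0907). Wild type had 14.8, 8.3 and 7.21, below all pdia6 null libraries (limma adjusted p = 0.144) and overlapping with focad null. Creb3l3b, of a family of membrane-bound factors that in mice drive liver apolipoprotein genes, stood at 6.27, 14.2 and 6.28 FPKM in focad null against 3.87, 4.47 and 2.11 in wild type (adjusted p = 0.181). Its relative creb3l3a ranged from 2.09 to 25.5 FPKM, with all pdia6 null libraries above wild type (14.7 at the lowest against 14.0 at the highest; adjusted p = 0.437). Hnf4a, a central liver regulator, ranged from 25.3 to 93.2 FPKM with overlapping groups.

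The mean pattern of the 9 genes over the libraries was lowest in wild-type replicate 3 (-0.60 on the centred log2 scale) and highest in the library labelled focad null replicate 2 (0.29). The median over the 9 genes was lowest in the same wild-type library (-0.45) and highest in pdia6 null replicate 2 (0.21). Apoa4b.3, a gene of low level, weighed heavily on the mean. It stood at 2.78 in focad null replicate 2, where the median was 0.17. In wild-type replicate 2 it stood at -2.87, where the mean was -0.28 and the median 0.07. The likeness that follows rests on the mean and so on this gene in large part. Among 3360 other genes whose mean reached 10 FPKM, those near to this mean pattern over 9 libraries included ndufb9, ndufa11, tor1b and ndufa12. Their root-mean-square differences were 0.11 to 0.14 log2 units, against a median of 0.54 over all those genes. Lcat and apoa4b.3 had no close partner among the 9, with nearest differences of 0.86 and 1.64.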

How the data were processed

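Liver RNA was required to have an integrity number over 6.5, per the labels' protocols. HTSeq 0.6.1, TopHat2 2.0.12, Bowtie2 2.2.3 and the zebrafish build danRer11 are listed in the submitters' processing notes. For the annotation, the strand setting and the statistical test, these sources name nothing. Deposited by the authors were a table of FPKM and, for each null, a table with a scaled mean count signal per group, and an adjusted p-value, per the file headers. The log2 ratio of those means was recomputed, because cells of the deposited log2 column hold errors.

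Each library was rescaled by its median ratio to the others over 7660 genes (factors 0.878 to 1.104), and printed levels are rescaled. The 13290 genes whose mean reached 0.5 FPKM were tested on log2(FPKM + 1) by limma 3.58.1 under R 4.3.3 (functions lmFit and eBayes, trended and robust) over 9 libraries and 3 group means, two-sided, with Benjamini-Hochberg adjustment over all of them. Such log2 differences understate those of low genes. Whole reads were recovered from the FPKM: all 164590 values below 1000 reads (100%) were whole within 0.05. Single values per library had exact two-sided permutation tests. The fit was tested on simulated data. pandas 2.3.3 and matplotlib 3.10.9 in Python 3.11.15 made tables and figures.

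Of the gene IDs, 29201 had a symbol. List symbols without a match under their zebrafish name were not used (for example abca1a and apoda.2). The genes named were all 9, a fixed set of pathway genes, and from each list up to 3 called members or else the 2 with the lowest p. The planned ratio of apobb.1 to apoba was computed with apob. Members and lists were chosen with earlier results of these data known. The design foresaw count tests if counts had been deposited. Alternatives were other pseudocounts, filters and scalings, 6-library fits, a replicate block, a plain fit, voom on recovered reads, each library left out, and the authors' tables. Some genes that the naming rule covers are not reported here.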

Additional observations from a re-analysis of the deposited data

How the results depend on the processing

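The count of the 9 genes called was 0 in all comparisons and settings except that it was 1 (apoa4b.3, focad null against wild type) without focad null replicate 3, so its range over the omissions of 1 library was 0 to 1. Of 570 log2 differences of the 9 genes and apob under the alternatives, 542 kept direction and side of the threshold, 27 that never passed changed sign, and 1 newly passed. Counts over all genes, for focad null and pdia6 null against wild type and focad null against pdia6 null, were 207, 163 and 160. They were 44, 61 and 57 with a mean of at least 5 FPKM (fewer genes tested), and 99, 86 and 76 with voom. The third was 254 with a pseudocount of 0.1 and 70 without wild-type replicate 1 and pdia6 null replicate 1 together. Leaving out 1 library gave 90 to 485, 78 to 239 and 61 to 642; the cause of these shifts was not tested. With the replicate number as a block the counts were 121, 82 and 82, and 0 of the 9 genes passed. Deviations of libraries with the same number correlated between -0.194 and 0.286, and 3 of 9 libraries correlated best with their own number, so the numbers were not taken to pair them. Without 1 library, the difference in the share of reads ranged from -0.55 to 1.03 percentage points for focad null and from 0.58 to 2.40 for pdia6 null against wild type. The log2 ratio of apobb.1 to apob in pdia6 null minus wild type ranged from -2.02 to -0.87. A count chosen after seeing the data was that of genes with groups apart: without pdia6 null replicate 1, 2 of 9 were apart from wild type, where 31.7% of all genes were. Such a count can only stay or rise when a library is left out. Depth did not limit the abundant genes; for apoa4b.3 the lowest library held 34 reads.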

Other observations

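Wild-type replicate 3 differed from its group at several lipoprotein genes, which were picked after their values were seen. It was the lowest of the 9 libraries for apoa1a, apoa2, apoc1, mttp, apobb.1, apob, apoa4b.1, apoa4b.2, apobb.2, apoc2 and apoc4. Relative to the mean of the other two wild-type libraries it held 0.108 times the apob, 0.123 times the apoa4b.1, 0.0378 times the apoa4b.2 and 0.0952 times the apobb.2. For apobb.1 the ratio was 0.481 and for apoa1a 0.566. Dgat2, the last enzyme of triglyceride synthesis, stood at 10.9 FPKM there against 37.7 and 34.2. It was lower still in the library labelled focad null replicate 2 (6.43 FPKM), where apob was also low (29.9 FPKM). In the opposite direction, wild-type replicate 3 was the highest library for pltp, a phospholipid transfer protein (50.5 FPKM against 1.61 and 3.94), and for lipg, endothelial lipase (61.5 FPKM against 6.36 and 19.6). For lipg, every null library was below every wild-type library, at 0.220, 0.511 and 3.56 FPKM in focad null and 0.911, 2.11 and 2.06 in pdia6 null. Its log2 differences of -3.38 and -3.01 did not pass (limma adjusted p = 0.0802 and 0.1265).

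Angptl4, an inhibitor of lipoprotein lipase induced by fasting in mammals, stood at 35.9, 18.7 and 3.43 FPKM in wild type, at 51.2, 18.8 and 144 in focad null and at 226, 205 and 108 in pdia6 null. The pdia6 null libraries were all above wild type (log2 difference 3.54, limma adjusted p = 0.124), and the difference did not pass. It was named after its values were seen.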
